A study of Homo sapiens with 16 samples.

Results

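VEPH1 (ENSG00000197415.12) is a protein-coding gene of 274 kb on the minus strand of chromosome 3, chr3:157259742-157533619 in hg38. The locus was chosen by the deposited lists themselves, for the number of regions that gained H3K27ac inside this gene, so that number is a description here and supports nothing. Every region of the 2 lists that lay in the gene body or within 200 kb of either gene end was taken. This gave 19 regions of the 7130 listed, and 16 of them were gained regions inside VEPH1, 0 were lost regions inside it, 2 were gained regions in the flanks and 1 was a lost region in a flank. Among all listed regions 3623, or 50.8%, were gained and 3507 were lost.

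H3K27ac, acetylation of lysine 27 of histone H3, was profiled by ChIP-seq in LX-2, an immortalised human hepatic stellate line that behaves like a myofibroblast. Control cells had vehicle (DMSO) and the other cells had OSMI-1 at 50 µM, both for 24 h. OSMI-1 is an inhibitor of OGT, which places the sugar O-GlcNAc on serines and threonines of intracellular proteins, and the treatment is called OGTi. Both arms had 4 H3K27ac libraries, all of 1 cell line, and 8 further libraries held input DNA or column purified chromatin. The authors used the ChIP inputs as controls when calling peaks, so these shaped the lists. The libraries of column purified chromatin and their inputs entered no result. The lists hold positions only, with no signal, no fold change and no replicate value, so the depth behind a region is unknown, the size of a gain cannot be given, and markers of stellate cells were not checked here.

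H3K27ac sits on nucleosomes beside active promoters and enhancers and is removed when these fall silent. VEPH1 encodes a pleckstrin homology domain protein, the counterpart of Drosophila Melted, which acts in the fly in insulin, FOXO and TOR signalling and, in photoreceptors, against the Hippo kinase Warts. The human protein has been linked to TGF-beta receptor signalling, the main fibrogenic pathway of stellate cells. Inside VEPH1, on the opposite strand, lies PTX3, which encodes the long pentraxin 3, a secreted pattern recognition protein of innate immunity that is induced by inflammatory cytokines.

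One of the gained regions covers the start of PTX3, the only other protein-coding gene inside VEPH1, so the 250 bases before that start are shown, from RefSeq (GRCh38.p14), plus strand, chr3:157436600-157436849. Capitals mark a CCAAT box, at positions -197 to -193 from the start, and a run of 11 letters that holds 2 overlapping matches to the NF-kB consensus, one on the strand of PTX3 at positions -97 to -88 and one on the other strand at -96 to -87. Of 35116 RefSeq promoters of this length, 5.91% hold an NF-kB match and 34.6% hold a CCAAT box. The whole stretch lies inside the gained region and has 51.6% GC.
PTX3 promoter: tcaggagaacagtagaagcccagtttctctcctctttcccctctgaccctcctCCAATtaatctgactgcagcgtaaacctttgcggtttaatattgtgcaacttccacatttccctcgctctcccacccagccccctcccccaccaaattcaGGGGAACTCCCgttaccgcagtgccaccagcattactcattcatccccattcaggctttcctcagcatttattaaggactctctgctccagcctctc

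The start of VEPH1-201, the longest protein-coding transcript of VEPH1, was not covered by a listed region, and the nearest gained region began 7793 bp downstream of it. The 30 bases at positions -60 to -31 from this start are shown because they hold an AP-1 consensus, TGANTCA, and, on the other strand, the TEAD consensus, CATTCC, which appears here as its reverse complement. They are from RefSeq (GRCh38.p14), minus strand, chr3:157503447-157503476, and capitals mark both matches. Of 35116 RefSeq promoters of 250 bases, 7.71% hold an AP-1 match and 14% a TEAD match. The promoters at the other RefSeq starts of VEPH1 held no AP-1 match.
VEPH1-201 start: cgcacggTGAGTCAatggggagGGAATGaa

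The 16 gained regions were numbered from the 5′ to the 3′ end of VEPH1, with introns counted in VEPH1-201, which has 14 exons and 13 introns. Regions 1 to 6 lay in the first part of the gene and regions 7 to 16 in its last part, between 62.8% and 91.8% of the way from the 5′ to the 3′ end. A stretch of 73.6 kb with no listed region, which holds exons 5 to 9, separated the 2 series. Of the 16 regions, 14 lay wholly within introns of VEPH1-201, 1 touched an exon, and 1 lay upstream of this transcript. The 14 intronic regions fell in 4 of the 13 introns, with 4 in intron 4 (31.7 kb), 4 in intron 9 (46.2 kb, the longest), 4 in intron 11 (26.9 kb) and 2 in intron 12 (20.9 kb). Intron 6 (32.5 kb) and intron 2 (24.7 kb), which are of like length, held no whole region.

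**Figure D1:**
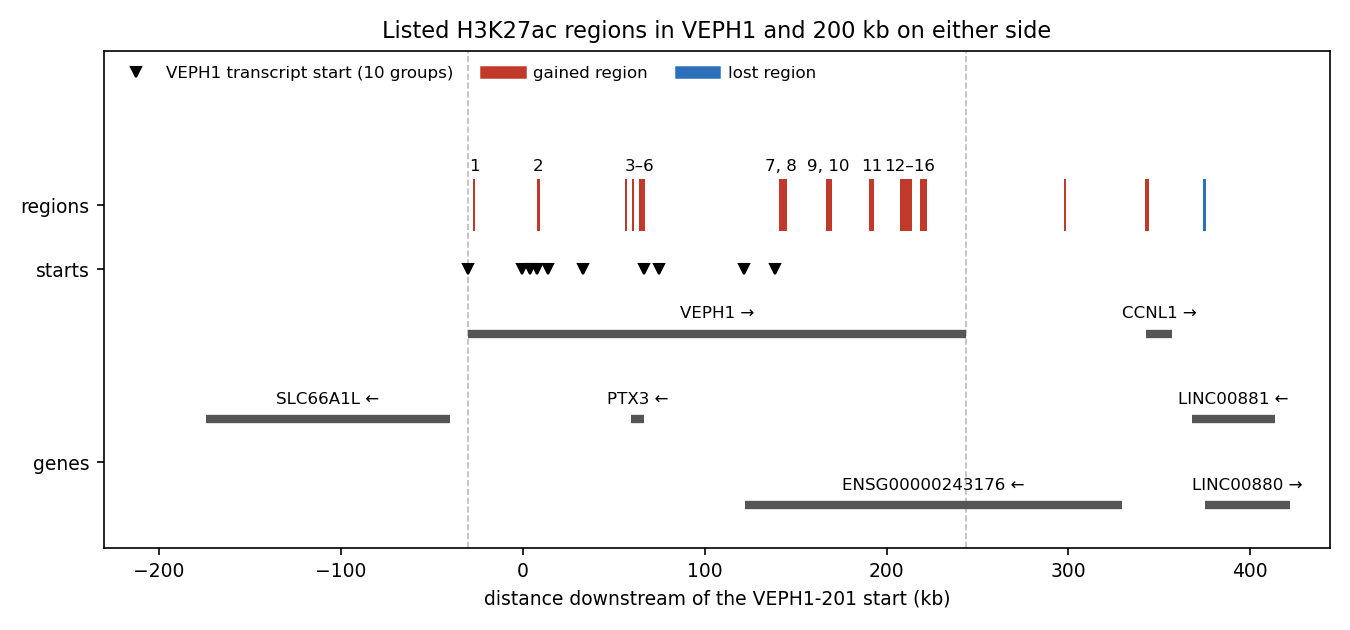
Positions of the 19 listed regions along VEPH1 and 200 kb on either side, as distance in kb downstream of the VEPH1-201 start, with gained regions in red, the lost region in blue, groups of VEPH1 transcript starts as triangles and genes as grey bars with an arrow for the direction of reading. Dashed lines mark the ends of VEPH1, between which 16 gained and 0 lost regions lie.

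Region 1, chr3:157529544-157530701, was the only one upstream of the VEPH1-201 start, with its centre 26.7 kb from it. It lay 2905 bp downstream of the most upstream group of VEPH1 starts, from which 6 of the 19 annotated transcripts begin, and over no exon. None of these 6 transcripts extends as far as regions 7 to 16, which are spanned by 3 VEPH1 transcripts that begin further downstream.

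Region 2, chr3:157493898-157495623, covered exon 2 of VEPH1-201, the exon with the first coding base, at position 157495349 of chromosome 3. It also covered the annotated start of the protein-coding transcript VEPH1-219, and reached 117 bp upstream of it. That start, at position 157495506, is the same base as the first base of exon 2 of VEPH1-201, so in VEPH1-201 the bases just before it are the end of intron 1. The last 27 of them are shown because they end in AG, the letters at the 3′ end of most introns. They are from RefSeq (GRCh38.p14), minus strand, chr3:157495507-157495533, with capitals for a match to the glucocorticoid receptor consensus ACANNNTGT. Whether transcription begins at this base cannot be read from H3K27ac.
VEPH1-219 start: ACATTGTGTcatttgtttcccttgcag

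Regions 3 to 6 lay within 10 kb of the PTX3 start, in intron 4 of VEPH1. PTX3 (ENSG00000163661.4, chr3:157436850-157443633, plus strand) is 6.78 kb long, and 3 of the gained regions overlapped it and covered 4142 bp, or 61.1%, of its length. Region 6, chr3:157436289-157438457, ran from 561 bp before the PTX3 start to 1607 bp after it and held exons 1 and 2. Region 5, chr3:157438458-157439628, abutted it and lay in PTX3 intron 2. Region 4, chr3:157441995-157443357, covered 992 of the 1268 bp of exon 3. Region 3, chr3:157446148-157447046, lay 2.79 kb beyond region 4, past the 3′ end of PTX3, and with 899 bp was the narrowest of the 16.

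**Figure D2:**
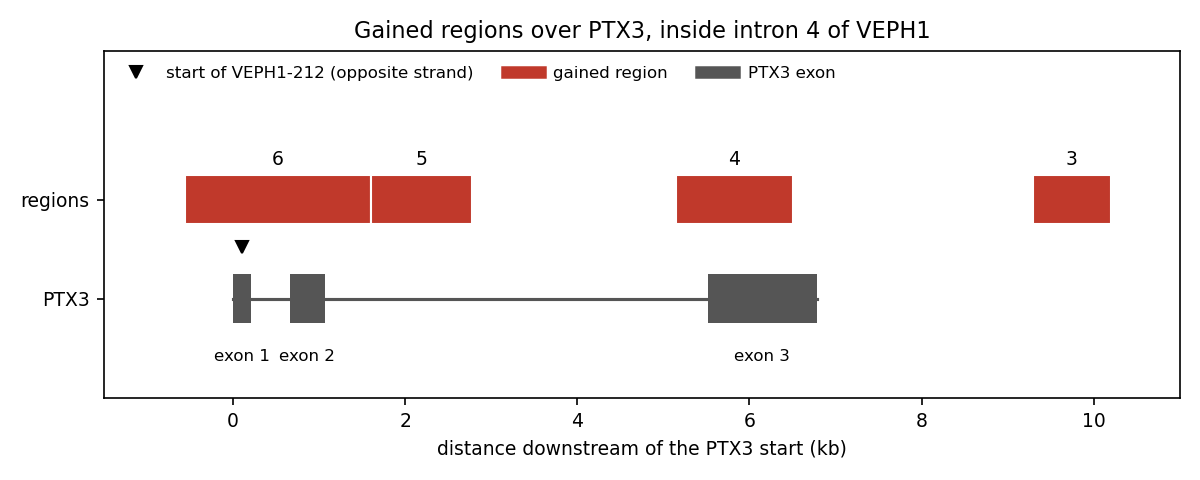
Gained regions 3 to 6 in red above the exons and introns of PTX3, as distance in kb downstream of the PTX3 start. Region 6 covers the start and exons 1 and 2, region 5 abuts it, and region 4 covers most of exon 3.

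Because ChIP-seq signal has no strand, region 6 cannot be given to PTX3 alone. The VEPH1 transcript VEPH1-212, read in the other direction and with no coding sequence annotated, starts 103 bp inside PTX3 exon 1 and under the same region. Of all protein-coding genes, 6.39% had a gained region within 2500 bp of the start. Of the 659 protein-coding genes that lie within another protein-coding gene on the opposite strand, 32, or 4.86%, had one, and for 29 of these 32 the start of the host gene had none, as at VEPH1. Of the 174 protein-coding genes with at least 3 gained regions in the body, 3 were no longer than 10 kb, and PTX3 was the shortest of them. All 3 regions of PTX3 are ones for which the locus was chosen, and regions 5 and 6 abut. This standing therefore follows from the choice and from the cutting of regions, and supports nothing.

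Regions 7 to 16 formed 5 blocks in introns 9, 11 and 12. Region 7, chr3:157360642-157362641, and region 8, chr3:157358011-157360641, abutted, and region 8 was the widest of the 16, at 2631 bp. Regions 9 and 10 abutted at 168 and 170 kb downstream of the VEPH1-201 start. Region 11, chr3:157310493-157312885, stood alone in intron 11, 14.7 kb from regions 12 to 14, which abutted to make the widest block, 6115 bp at chr3:157289658-157295772. Regions 15 and 16 abutted in intron 12, and region 16, chr3:157281400-157283143, was the last before the 3′ end of the gene. The only VEPH1 start within 2500 bp of any of them was that of VEPH1-207, a retained-intron transcript, 1840 bp from region 7.

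All 10 of these regions also lay inside an unnamed long noncoding RNA gene, ENSG00000243176, of 207 kb on the plus strand. It overlaps the 3′ part of VEPH1 and extends beyond it, and 1 further gained region, chr3:157204712-157205922, lay in the part outside VEPH1. With 11 gained regions in its body it ranked 3 of 18866 lncRNA genes, with 2 others at the same number. Of these 11 regions, 10 are ones for which the locus was chosen, so this rank follows from the choice and supports nothing. Regions 15 and 16 overlapped exons of its transcripts, and regions 7 to 14 lay over introns of both genes. No annotated start of this lncRNA lay within 2500 bp of a listed region, and its own 5′ end was 12797 bp from the nearest.

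Counted by annotated starts of VEPH1, 4 of the 16 regions lay within 2500 bp of one (regions 2, 5, 6 and 7), and 0 lay within 2500 bp of the 5′ end of the gene or of the VEPH1-201 start. Of the 10 groups of VEPH1 starts, those of VEPH1-219 and VEPH1-212 fell under a gained region. The other 8 lay between 1840 and 23369 bp from the nearest one.

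The lists cut a wide acetylated domain into abutting regions, so neighbours are not independent. Of the 16 regions, 11 (68.8%) abutted another, against 19.4% of all gained regions. The locus was chosen for its count of regions, which such cutting raises, so this contrast and that of block widths are description only. Joined where they abut, they made 10 blocks, of which 5 were single regions, 4 were pairs and 1 held 3 regions. The regions were 899 to 2631 bp wide with a median of 1921 bp, beside 1697 bp over all gained and 1905 bp over all lost regions. The blocks had a median width of 2866.5 bp, beside 1669.5 bp over the 3210 blocks of all gained regions. Together the regions covered 28.7 kb, or 10.5% of the gene body.

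The 9 gaps between blocks were 2.37 to 73.6 kb long, with a median of 20.3 kb. The closest blocks were those over PTX3 and just past its 3′ end, 2.37 and 2.79 kb apart. The widest gaps were the 73.6 kb between regions 6 and 7, the 46.9 kb between regions 2 and 3 and the 33.9 kb between regions 1 and 2. With neighbouring centres within 50 kb counted as 1 run, regions 7 to 16 made a run of 10 over 81.2 kb and regions 1 to 6 a run of 6 over 94.4 kb. Of the 2440 runs of gained regions, 7 were as long as the first or longer, and 38 as long as the second or longer, and the median run was 1 region. These standings too follow from a locus chosen for its count.

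Outside the gene, the 3 listed regions within 200 kb lay on the 3′ side. The gained region chr3:157159156-157161404, of 2249 bp, covered the start of CCNL1, the gene of cyclin L1, a cyclin with a role in pre-mRNA splicing, 99 kb from the 3′ end of VEPH1. The 5′ end of an unnamed lncRNA, ENSG00000241770, lay 2048 bp from it. This region held a CRE consensus, TGACGTCA, at positions -86 to -79 from the RefSeq start of CCNL1, a motif that 0 of the 16 regions in VEPH1 held and that 1.85% of promoters of 250 bases hold. The match, chr3:157160226-157160233, is shown in capitals with 10 bases on either side, hg38, plus strand.
CCNL1 start: gcttccgcccTGACGTCAccacgccggg

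The lost region, chr3:157127819-157129689, of 1871 bp, lay 130 kb beyond the 3′ end of VEPH1, over the start of LINC00880 and within LINC00881, a pair of overlapping lncRNA genes on opposite strands. On the 5′ side the 200 kb next to VEPH1 hold the transcribed pseudogene SLC66A1L and 1 lncRNA and had no listed region. The nearest gained region on that side was 576 kb away, in RSRC1, and the nearest lost one 1179 kb away, in RARRES1. Chromosome 3 as a whole had 245 gained and 276 lost regions, so that 6.53% of its gained regions lay in VEPH1.

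The regions were poor in G and C. GC content was 32.5% to 52.3% with a median of 39.6%, beside 46.1% over all gained and 46.8% over all lost regions. Region 6, at the PTX3 start, had the highest GC content and was the only 1 of the 16 above the median of all gained regions, and 10 of the 16 were under their lower quartile of 40.3%. The locus itself is of this kind, since the VEPH1 gene body outside the gained regions had 38.2% GC. Away from gene starts the list median was lower. Over the 1411 gained regions centred in a protein-coding gene and more than 2500 bp from any gene start, the median was 41.9%, and over the 14 regions of VEPH1 so placed it was 38.6%.

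The CpG ratio, the number of CpG dinucleotides over that which the C and G content would give, was 0.0784 to 0.712 with a median of 0.159, beside 0.247 over all gained regions and 0.202 over all lost ones. Regions 6 (0.712), 5 (0.321) and 16 (0.261) were above the first of these medians. Regions 5 and 6 are the abutting pair at the PTX3 start, and region 16 is the intronic one nearest to the 3′ end of VEPH1. Outside the gained regions the ratio of the gene body was 0.155.

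**Figure D3:**
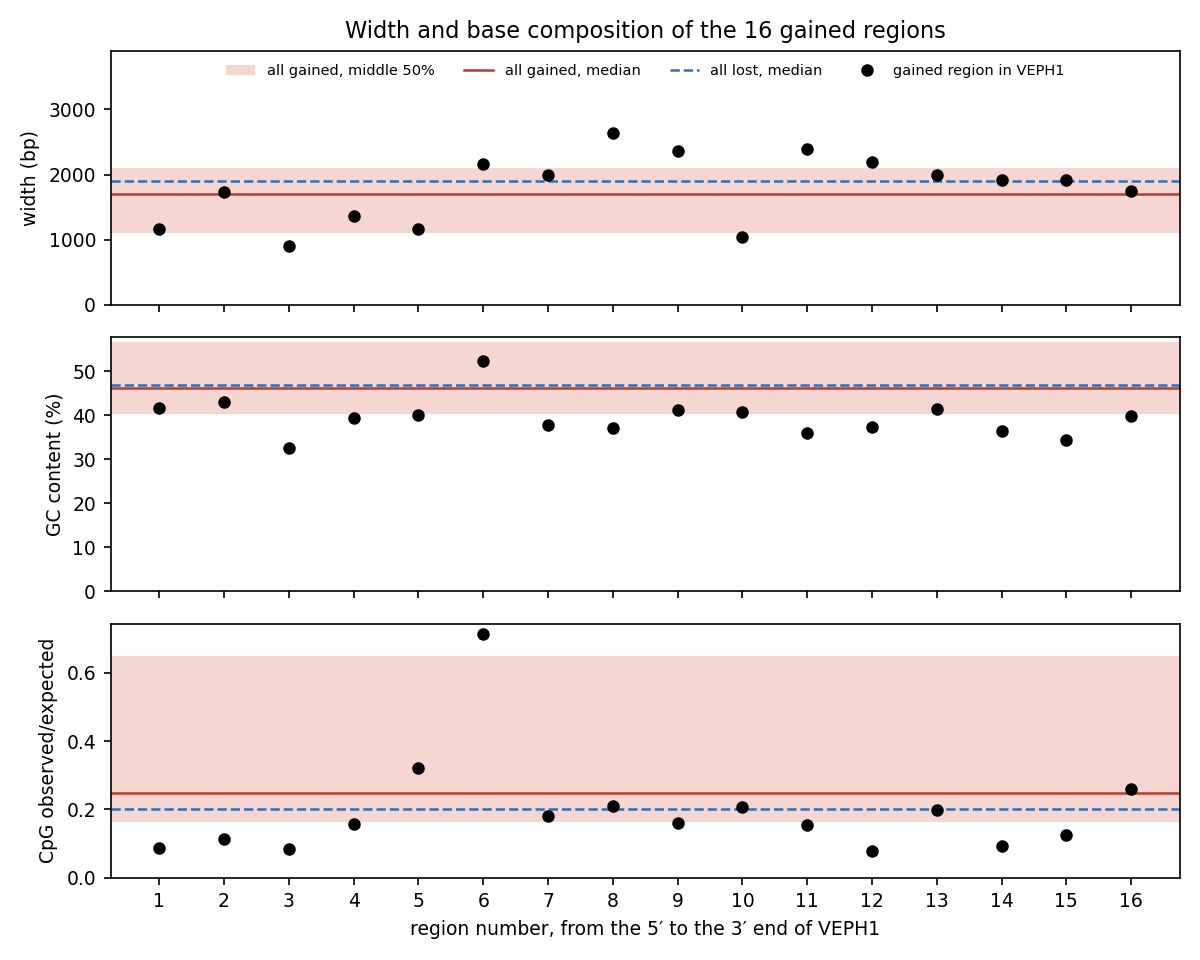
Width in bp, GC content in percent and CpG ratio of the 16 gained regions in order from the 5′ to the 3′ end of VEPH1 (points), with the median of all gained regions (red line), their middle 50% (band) and the median of all lost regions (dashed blue line). Region 6, at the PTX3 start, is the only point above the red line for GC content, and regions 5, 6 and 16 are above it for the CpG ratio.

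Matches to 17 transcription factor consensus motifs were looked up on both strands in the central 1000 bp of every listed region. This stretch runs past the ends of a region narrower than 1000 bp. A match is a description of the letters and shows no binding, and 16 regions of 1 locus share its base composition, so no test was made. The TEAD motif, CATTCC, bound by the TEAD factors of the YAP pathway, was in 5 of the 16 regions (31.2%), beside 45.8% of all gained and 60.6% of all lost regions. Over the whole width it was in 8 of 16 (50%), beside 58.8% of all gained and 73.5% of all lost regions. In the gained regions of VEPH1 it occurred 0.383 times per kb, and in the rest of the gene body 0.604 times per kb. The AP-1 motif, TGANTCA, bound by JUN and FOS proteins, was in 9 of 16 central stretches (56.2%), beside 46.7% of all gained and 44.7% of all lost regions. In region 3, of 899 bp, the match lies in the central stretch but outside the region. Over the 1411 gained regions centred in a protein-coding gene and away from gene starts, the placing of 14 of the 16, the shares were 57.8% for AP-1 and 48.5% for TEAD. AP-1 occurred 0.662 times per kb in the regions of VEPH1 and 0.404 times per kb in the rest of the gene body. Over the whole width of the regions it was in 12 of 16 (75%), beside 53.6% of all gained and 56.5% of all lost regions.

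The composite site of ATF4 and a C/EBP protein, TGATGCAA, which carries the amino acid and stress response, was in regions 3, 9 and 11, or 18.8%, beside 8.17% of all gained regions and 2.2% of all lost regions. Of gained regions in genes and away from gene starts, 9.14% held this site. Of the promoters, which are stretches of 250 bases and so shorter, 0.866% hold it. The share rests on 3 regions with 4 matches. They are shown with 10 bases on either side, hg38, plus strand, with the match in capitals, which reads as its reverse complement in regions 3 and 9. The matches lie at chr3:157446782-157446789, chr3:157335350-157335357, chr3:157311826-157311833 and chr3:157311955-157311962, so both of the last are in region 11.
Region 3: tcgttgatccTTGCATCAagttttataa
Region 9: tgagccgtgtTTGCATCActgcactcca
Region 11, first: tcttcaaataTGATGCAAcagttgaaaa
Region 11, second: caaaaagtagTGATGCAAtcgtttcata

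The regions that held a match differed from motif to motif. The NF-kB consensus was in 0 central stretches, beside 14.4% of all gained regions, and in the whole width it was in regions 5 and 6 alone, at PTX3 (12.5%, beside 20.4% of all gained regions). The glucocorticoid receptor consensus, ACANNNTGT, was in 6 of 16 central stretches (37.5%), beside 22.9% of all gained and 23% of all lost regions, and over the whole width in 12 of 16 (75%), beside 34.1% of all gained and 37.1% of all lost regions. Its 12 regions took in region 2, region 6 and all of regions 7 to 16, but not regions 1, 3, 4 and 5. Those without a match were narrow, at 899 to 1363 bp, beside a median of 1921 bp for all 16. Region 10, of 1047 bp, was narrow too and held a match. Width and place in the gene cannot be told apart here. The RUNX motif, TGTGGT, was in 10 of 16 central stretches (62.5%), beside 46.9% of all gained regions. The SMAD motif, CAGACA, the letters bound by the effectors of TGF-beta, was in 6 of 16 (37.5%), beside 46.5%. For gained regions in genes and away from gene starts these shares were 54.1% for RUNX and 53.1% for SMAD. For the glucocorticoid receptor consensus the share in such regions was 28.3%. Over the whole width the order turned for SMAD, with 11 of 16 (68.8%) beside 60.4% of all gained regions. RUNX was then in 11 of 16 (68.8%), beside 60%.

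CCAAT, bound by NF-Y, was in 15 of 16 central stretches (93.8%), beside 72.5% of all gained regions, with region 6 as the exception. The share was 76% for gained regions in genes and away from gene starts. CCAAT occurred 2.2 times per kb in the regions of VEPH1 and 1.81 times per kb in the rest of the gene body. The SP motif, GGGCGG, typical of CpG-rich promoters, was in regions 6 and 9 (12.5%), beside 38% of all gained regions and 16.5% of those in genes and away from gene starts. Forkhead sites, TGTTTAC, heat shock elements, GAANNTTC, and antioxidant response elements, TGACNNNGC, were each in 3 of 16 regions (18.8%), beside 13.4%, 24.2% and 36.4% of all gained regions. Over the whole width they were in 18.8%, 37.5% and 31.2% of the 16, beside 21.4%, 34.6% and 47%, so the order turned for the first 2. The E-box, CACGTG, was in 2 of 16, beside 15.2%. The ETS motif, CCGGAAGT, the C/EBP palindrome, TTGCGCAA, the CRE, TGACGTCA, and the CArG box of serum response factor were in 0 of 16, beside 6.29%, 0.331%, 1.77% and 4.39% of all gained regions. For ETS the share was 1.63% in genes and away from gene starts. The C/EBP palindrome and the composite site end in the same letters, GCAA, and were counted apart.

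**Figure D4:**
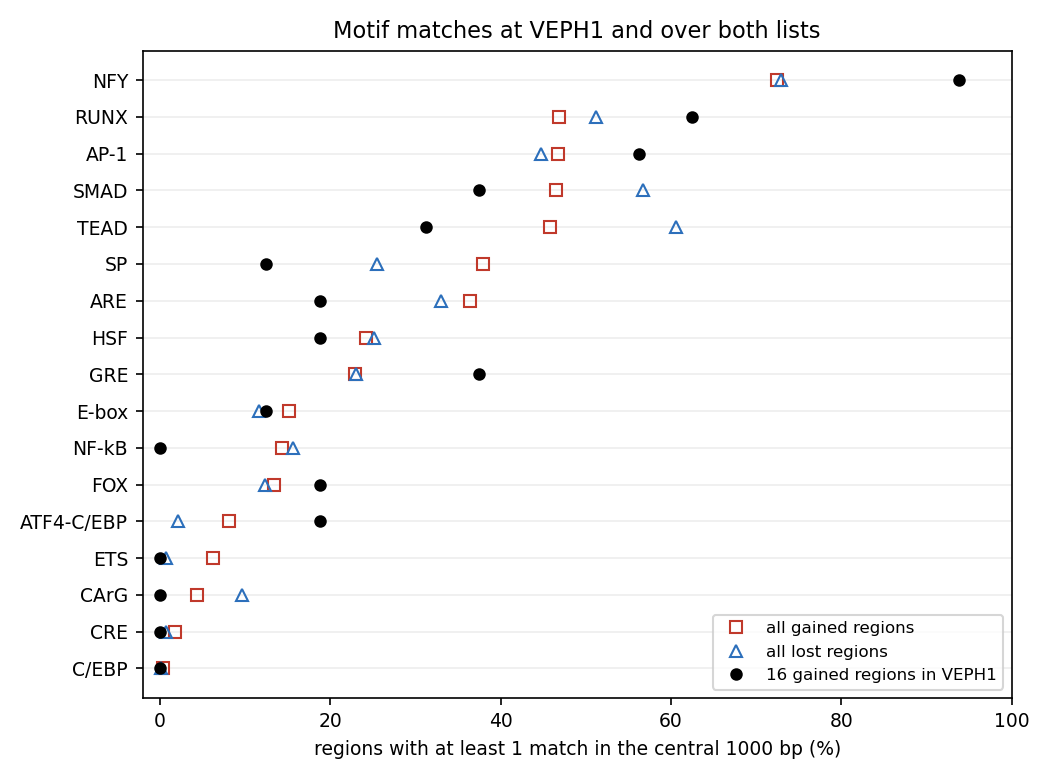
Share of regions, in percent, with at least 1 match to each of 17 motifs in the central 1000 bp, for the 16 gained regions in VEPH1 (black points), all gained regions (red squares) and all lost regions (blue triangles). The TEAD share of VEPH1 (31.2%) lies below those of both lists (45.8% and 60.6%).

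Of 20046 protein-coding genes, 2185, or 10.9%, had a gained region in the body, and 1742 of these had 1. VEPH1 had the most, which is how it was chosen. Counted in blocks it had 10, as did EXT1, and by gained regions per 100 kb of gene it stood 13 of the 50 genes with at least 5 gained regions, at 5.84 beside a median of 3.53. Of the 966 genes at least as long as VEPH1, 245 had a gained region and 201 had a lost one. The genes most like VEPH1, taken as those with the most gained and no lost regions in the body, were ADAMTS12 (15 gained regions), a secreted metalloproteinase, DST (13), the cytoskeletal linker dystonin, PDGFC (12), a ligand of PDGF receptors, and EXT1 (12), a heparan sulfate polymerase.

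Placement and spacing varied among these genes. ADAMTS12, PDGFC and EXT1 each had 1 gained region within 2500 bp of the gene start, and VEPH1 and DST had 0. The share of the gene covered was 10.5% in VEPH1, 11% in PDGFC, 8.56% in ADAMTS12, 6.08% in EXT1 and 5.1% in DST. Abutting regions were not particular to VEPH1. The 15 regions of ADAMTS12 made 9 blocks, the 13 of DST 8, the 12 of PDGFC 9 and the 12 of EXT1 10. The median width of their regions was 2000 bp in each, beside 1921 bp in VEPH1. The median gap between blocks was 20.3 kb in VEPH1, 34.1 kb in DST, 13.5 kb in EXT1, 7.77 kb in PDGFC and 7.5 kb in ADAMTS12. The median GC content of the gained regions was 39.6% in VEPH1, 37.4% in DST, 38.2% in PDGFC, 41.6% in ADAMTS12 and 43% in EXT1.

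**Figure D5:**
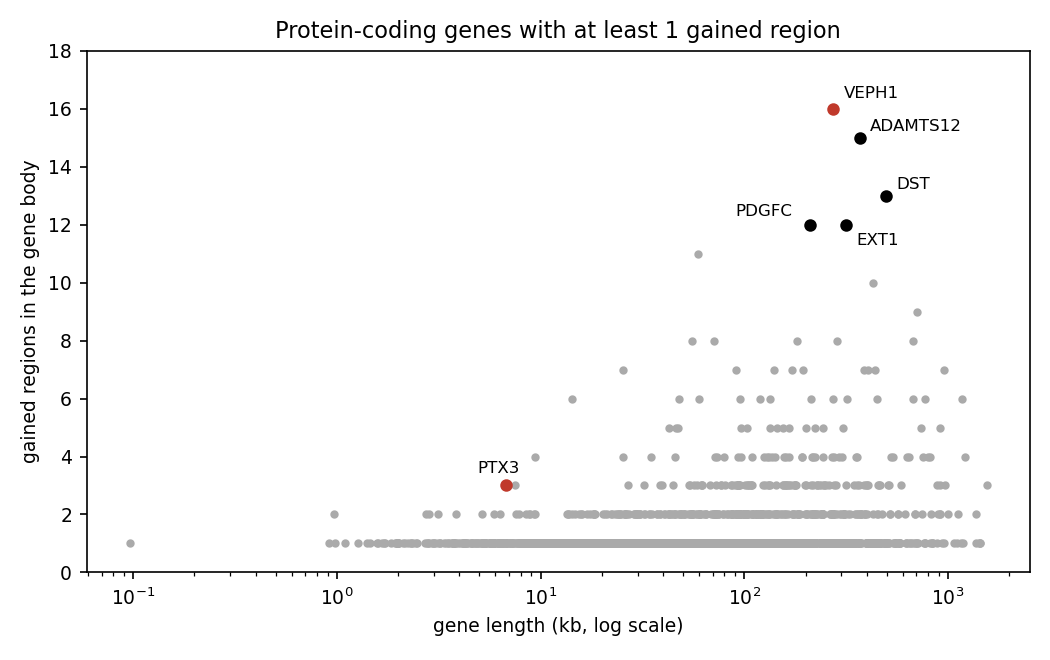
Number of gained regions in the gene body against gene length in kb (log scale), with 1 point for each of the 2185 protein-coding genes that had any. VEPH1 (red, 16 regions), the nested PTX3 (red, 3 regions) and the 4 genes most like VEPH1 (black, 12 to 15 regions) are named.

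The pathways that VEPH1 and PTX3 are known from were looked up by gene lists, each gene taken with its body and 2500 bp on either side. By this rule 11.7% of protein-coding genes had a gained region and 7.30% had a lost one, and long genes are more likely to have either. Among 14 genes of TGF-beta receptors and SMADs, 5 had a gained region and 4 a lost one. TGFBR2, the type II receptor of TGF-beta, had 2 gained regions, and ACVR1B, an activin receptor, and SMAD7, an inhibitory SMAD, had 1 each. TGFBR3, the co-receptor betaglycan, had 2 lost regions and SMAD6, also inhibitory, had 4. SMAD3, the receptor-activated SMAD of TGF-beta, had 7 lost and 1 gained, and ACVR1 had 1 of each. Within 2500 bp of the gene start, 1 gene of the list had a gained region (TGFBR2) and 2 had a lost one (ACVR1 and SMAD6).

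In the list of insulin, FOXO and TOR signalling, IGF1R, a growth factor receptor, and RPTOR and RICTOR, subunits of the TOR complexes, had 1 gained and 1 lost region each. RHEB, the GTPase that activates TOR, and MTOR, the kinase itself, had 1 gained region each and no lost one, and TSC1, a TOR inhibitor, had 1 lost. Among 8 genes of the Hippo pathway, kinases and their partners, LATS2 had 1 gained region and STK3 had 2 lost ones. Among 7 pentraxin genes PTX3 had gained regions, all 3 of them in VEPH1, and the other 6 had neither kind. VEPH1 itself was in none of the lists.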

How the data were processed

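H3K27ac ChIP-seq was performed on 4 control and 4 OGTi cultures of LX-2. As the study's methods state, reads were aligned by the authors to hg38 with Chromap. The authors called peaks against input with MACS2 (2.1.1.20160309 per the submitters' processing notes), and compared all 8 libraries in bins with MAnorm2. The deposited lists give chromosome, start and end of each region that differed, at an adjusted p of 0.15 by their names, a looser threshold than the methods text states. The labels do not say what separates the replicates, which the paper gives as 4 biologically independent experiments. By the labels, the last replicate of each arm had its own ChIP input and the others shared theirs.

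BED starts were converted to count from 1. Genes came from GENCODE release 44 on hg38, later than the release used by the study. Overlap was by any shared base. Abutting regions were joined into blocks. Motifs were searched in hg38 sequence, on both strands. Named genes were VEPH1, protein-coding genes in the window, other genes there at a listed region, the 4 genes with most gained and no lost regions, and members of 4 gene lists, of which some results for 1 list are not reported here. The locus, lists and motifs were chosen with earlier results of these data known, so no test was run. Functions were tested on simulated regions (Python 3.11.15, numpy 2.4.6, matplotlib 3.10.9).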

Additional observations from a re-analysis of the deposited data

How the results depend on the processing

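The count of 16 gained regions in VEPH1 was the same by region centre, by whole region and with 2500 bp added at either end, and the count of lost regions stayed at 0. Joining abutting regions, or merging those within 1000 bp, gave 10 gained regions with a median width of 2866.5 bp. A flank of 100 kb held 0 lost regions and one of 500 kb held 3. The longest run at VEPH1 had 6 regions with centres within 20 kb. With centres within 100 kb it had 18, which are the 16 regions of VEPH1 and the 2 gained regions in its flanks. Regions near a VEPH1 start numbered 2 within 1000 bp, 6 within 5000 bp, 1 at protein-coding transcripts only and 0 at the 5′ end of the gene only. Regions touching a VEPH1 exon fell from 2 to 1 with protein-coding transcripts only, and to 1 with VEPH1-201 only. By gained regions per 100 kb, VEPH1 ranked 13. Of 17 motif counts, 10 rose when whole regions were searched, 6 of them by more than 1.5 times, and the other 7 stayed the same. No paired analysis was possible because no value per library was used. Leaving out a library and a stricter threshold could not be run on positions alone, and depth is unknown.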
